A study of Mus musculus with 98 samples.

Results

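Transcripts of the TGF-beta pathway were followed in single innate lymphoid cells (ILCs) of mouse intestine through 9 genes chosen by name: the ligand gene Tgfb1, the receptor genes Tgfbr1 and Tgfbr2, the SMAD genes Smad2, Smad3, Smad4 and Smad7, and the co-repressor genes Ski and Skil. These are 9 of the 23420 gene symbols in the deposited tables, and all 9 had a row for R9-ILCs and for WT-ILCs. R9-ILCs (67 cells) are C57BL/6 ILCs grown anew from pluripotent stem cells. They were sorted as GFP+CD45.2+Lin-CD127+ cells out of the intestine of transplanted Rag2-/-Il2rg-/- mice at 3 weeks, hosts that make no T, B or natural killer cells and no ILCs of their own. WT-ILCs came from the intestine of C57BL/6 wild-type mice of 8 weeks, gated as CD45.2+Lin-CD127+ cells with no GFP gate. Neither group has a treated and an untreated arm, and the number of mice behind either is not given in the sources used here. R9 titles fall into a series with the numeric ending 1 (35 cells) and a series with no ending (32 cells), a difference whose meaning the labels do not give, so the series are shown apart.

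TGF-beta is made as a latent precursor and must be released before it can bind. Active ligand brings together the type II receptor TGFBR2, which binds it, and the type I receptor TGFBR1, whose kinase then phosphorylates SMAD2 and SMAD3. These join SMAD4 and enter the nucleus, where SKI and SKIL (SnoN) hold SMAD complexes in a repressed state, while SMAD7 blocks the receptors and is itself induced by the signal. In the intestine TGF-beta is known as a regulator of lymphocyte residence in the epithelium and of shifts between ILC states.

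The values are in TPM, a length-corrected share of each cell's RNA with the same total in every cell. A gene was counted as detected in a cell at 1 TPM or more. Of the 31 WT columns, 17 fell into 8 sets with closely correlated values over the genes that columns shared. They were averaged within each set, which left 22 WT cells. That these columns are 1 cell per set is an assumption. In 16 pairs of an averaged cell and 1 of the 9 genes, at least 1 column had the gene at 1 TPM or more. Every column of the set reached that limit in 10 of the 16. After averaging, Ski in WT cell 15 (0.690 TPM) and Smad2 in WT cell 9 (0.868 TPM) fell below the limit and were counted as not detected.

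The 3 sets of cells differed in ways that bear on every value below. Genes at 1 TPM or more per cell had a median of 2429 in R9 cells of ending 1 (range 1913 to 6042), 2082.5 in R9 cells with no ending (1187 to 2989) and 2092.5 in WT cells (793 to 7518). Values above 0 but under 1 TPM made up a median of 26.9% of a cell's nonzero values in ending 1, 0.147% with no ending and 17.2% in WT. At the upper end, 46.3% of all detected values in ending 1 were at 100 TPM or more, against 34.95% with no ending and 31.6% in WT. A single gene held 10% or more of a cell's TPM in 1 of 35, 26 of 32 and 5 of 22 cells. The housekeeping gene Gapdh stood at 0 in 1 cell of ending 1, 24 cells with no ending and 9 WT cells. Actb and B2m, looked at in the same way, stood at 0 in 0 cells of each set, so such zeros were not general to housekeeping genes. With Gapdh as the example, a listed 0 can be a failed estimate and does not show absence. Of 16 ILC3 markers, 15 were seen in each set (Il17a was at 0), with a median summed level of 12731, 3919 and 4208 TPM. Mast cell and basophil markers, 10 in number, reached a summed median of 1349 TPM (range 61.1 to 4659) in R9 cells with no ending, where 6 were seen and Mcpt1, Mcpt2, Ms4a2 and Hdc were at 0. Their sums were 0 to 615.9 TPM in R9 cells of ending 1 and 0 to 3.91 TPM in WT cells. Macrophage and dendritic markers, of which 5, 7 and 7 of 10 were seen, were likewise highest with no ending, with summed medians of 0, 444.5 and 1.49 TPM and highest cells of 1874, 3920 and 4834 TPM. Epithelial markers, of which 11, 9 and 12 of 12 were seen, had summed medians of 63.1, 659.9 and 1703 TPM. Erythroid markers, of which 4, 2 and 3 of 4 were seen, had summed medians of 94.1, 169.6 and 9.75 TPM. Their highest cells were at 194862, 10989 and 870 TPM. The part of these differences in the results below was not tested.

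**Figure D1:**
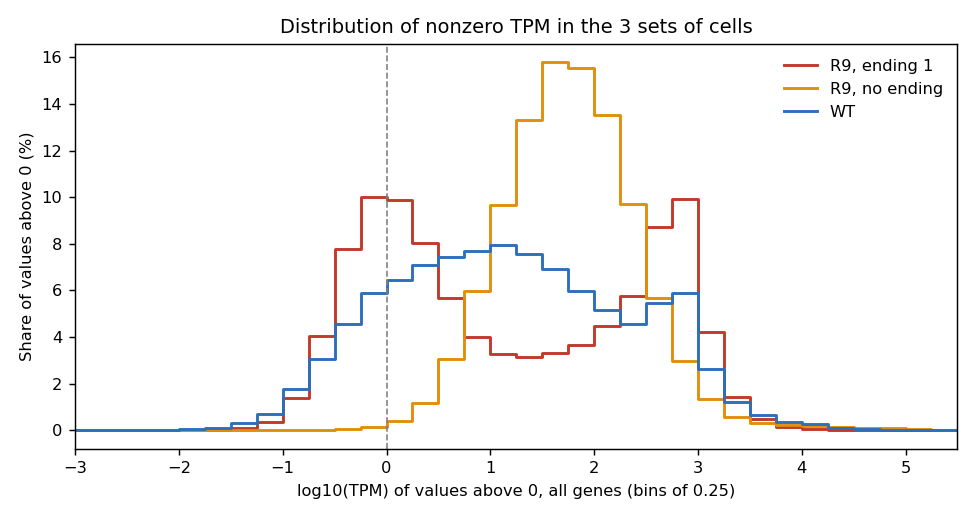
Distribution of nonzero TPM values (x axis, log10 TPM) as a percentage of all nonzero values (y axis) in the 35 R9 cells of ending 1, the 32 R9 cells with no ending and the 22 WT cells, over all genes. R9 cells of ending 1 show a low and a high hump with 13.4% of nonzero values between 10 and 100 TPM, whereas R9 cells with no ending hold 54.3% of theirs there and WT cells 28.4%.

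The ligand and its receptors open the pathway, and the bases just before their starts are shown here because signalling needs both receptors while their genes were detected so unequally. Tgfb1 lies on chromosome 7 (chr7:25687002-25705077, plus strand), Tgfbr1 on chromosome 4 (chr4:47353222-47414931, plus strand) and Tgfbr2 on chromosome 9 (chr9:116084293-116175360, minus strand), all protein-coding genes in GRCm38. The windows are the 250 bases before a RefSeq start (GRCm38.p6), at chr7:25686752-25687001 (plus), chr4:47352972-47353221 (plus) and chr9:116175364-116175613 (minus), and 5 of the 9 genes had such a window. Capitals mark CAGAC, the core of the element that SMAD3 and SMAD4 bind, and GGCGC, a GC-rich SMAD motif, on either strand (GTCTG and GCGCC on the other).
Tgfb1: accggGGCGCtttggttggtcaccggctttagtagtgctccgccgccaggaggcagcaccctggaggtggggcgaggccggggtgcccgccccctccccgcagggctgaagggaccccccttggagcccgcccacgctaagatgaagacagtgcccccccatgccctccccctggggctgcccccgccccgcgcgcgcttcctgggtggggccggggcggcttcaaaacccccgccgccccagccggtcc
Tgfbr1: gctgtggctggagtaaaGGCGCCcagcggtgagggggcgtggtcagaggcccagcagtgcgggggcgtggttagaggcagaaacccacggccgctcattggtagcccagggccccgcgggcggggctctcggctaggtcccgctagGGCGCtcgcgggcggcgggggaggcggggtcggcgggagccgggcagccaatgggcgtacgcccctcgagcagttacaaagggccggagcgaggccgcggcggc
Tgfbr2: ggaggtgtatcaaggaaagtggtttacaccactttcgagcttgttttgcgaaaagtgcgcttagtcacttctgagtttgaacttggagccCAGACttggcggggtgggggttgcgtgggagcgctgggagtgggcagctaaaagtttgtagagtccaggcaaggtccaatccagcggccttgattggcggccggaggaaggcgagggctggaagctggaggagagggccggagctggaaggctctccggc
The Tgfb1 window had 1 GGCGC and no CAGAC, at 75.2% G or C. The Tgfbr1 window had 3 matches to GGCGC, counting both strands of the palindromic stretch apart, no CAGAC, and 74.8% G or C. RefSeq has a second start of Tgfbr1 further into the gene, whose window (chr4:47385966-47386215, plus, not shown) had 1 CAGAC, no GGCGC and 52.8% G or C. The Tgfbr2 window had 1 CAGAC, no GGCGC, and 58.4% G or C. Over 32851 windows of the same length, 42.2% held CAGAC and 32.02% held GGCGC, so matches of this kind are common and are given as a description.

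Tgfb1, the ligand gene, was detected in R9 cells of ending 1 and in almost no other cell. It was at 1 TPM or more in 8 of 35 cells of ending 1 (22.9%, exact Clopper-Pearson 95% interval 10.4 to 40.1), in 0 of 32 with no ending (upper bound 10.9) and in 1 of 22 WT cells (4.55%, 0.115 to 22.8). The intervals of ending 1 and no ending met between 10.4% and 10.9%. All intervals here are for cells listed at the given level, and since zeros can be failed estimates they do not limit the share of cells that express a gene. They cover counting error only, and cells are not replicates of a group, so no p-value was computed. In the 8 cells of ending 1 the level was 2.81, 4.05, 5.40, 6.13, 6.99, 9.97, 14.8 and 510.3 TPM. The WT cell, with 7518 genes the cell with the most genes in the series, had 5.42 TPM. Thus 7 of the 8 positive R9 cells lay near the level of the WT cell, from 2.81 to 14.8 TPM, and 1 cell (number 19) carried 91.0% of the summed Tgfb1 of its series. Every R9 cell with no ending was listed at 0, so no ratio of Tgfb1 over WT is given for them. Positive cells did not have more genes than the others in ending 1, with a median of 2299.5 against 2458. Their ILC3 marker sum was 13416 TPM in the median against 12327 TPM in Tgfb1-negative cells of that series. Their mast cell marker sum reached at most 1.12 TPM, against 615.9 TPM in the negative cells. The macrophage and dendritic sum had a median of 0 in both, and reached 987.8 TPM in positive and 1874 TPM in negative cells. The epithelial sum had medians of 16.4 and 69.2 TPM, and reached 2540 and 14268 TPM.

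**Figure D2:**
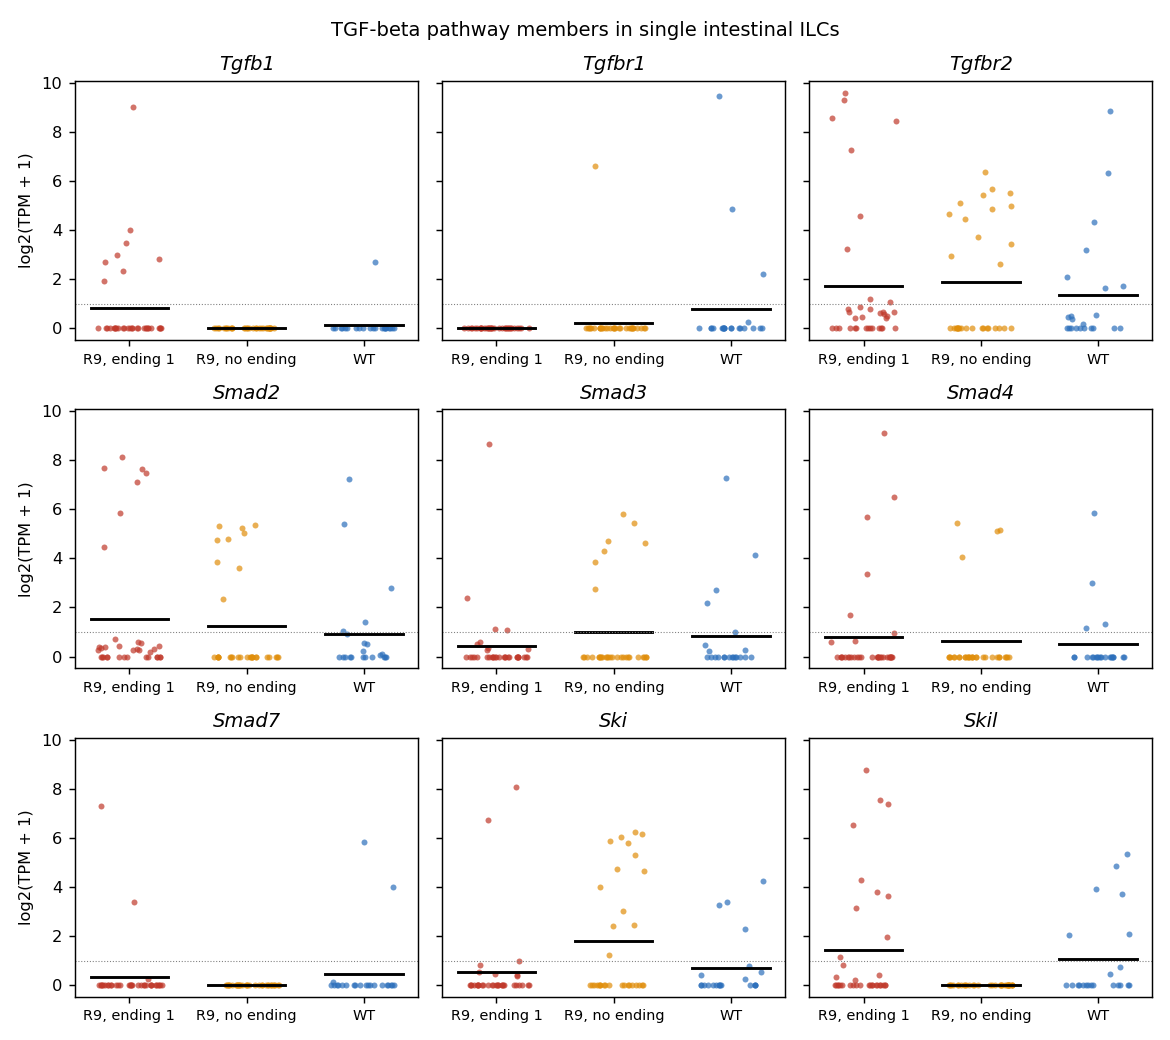
TPM of the 9 genes in each cell (y axis, log scale with 0 drawn at the bottom), with R9 cells of ending 1, R9 cells with no ending and WT cells side by side from left to right. For most genes the majority of cells sit at 0, while Tgfbr2 and Smad2 are above 0 in 21 of the 35 cells of ending 1. The detected values of R9 cells with no ending lie between 1.35 and 97.3 TPM, and those of ending 1 reach 768.7 TPM.

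Of the receptor pair, Tgfbr2 was among the most widely detected of the 9 genes and Tgfbr1 among the least. Tgfbr2, the type II receptor that binds the ligand, was detected in 9 of 35 R9 cells of ending 1 (25.7%, 12.5 to 43.3), 13 of 32 with no ending (40.6%, 23.7 to 59.4) and 7 of 22 WT cells (31.8%, 13.9 to 54.9), with intervals that overlap throughout. Tgfbr1, the type I kinase receptor, was detected in 0 of 35 (up to 10.003), 1 of 32 (3.12%, 0.0791 to 16.2) and 3 of 22 cells (13.6%, 2.91 to 34.9).

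Among positive cells the level of Tgfbr2 varied widely. R9 cells of ending 1 had 1.11, 1.26, 8.42, 22.5, 153, 341, 374, 628 and 769 TPM. The 13 positive R9 cells with no ending ran from 5.06 to 80.6 TPM with a median of 28.02 TPM. WT cells had 2.07, 2.33, 3.30, 8.06, 19.04, 78.7 and 459 TPM. Cells above 100 TPM therefore numbered 5 in ending 1, 0 with no ending and 1 in WT, although the 3 ranges overlap. Below the detection limit, a further 12 cells of ending 1 and 5 WT cells had Tgfbr2 above 0 but under 1 TPM, and 0 cells with no ending did. The highest WT value comes from the 3 averaged columns of cells 16 and 32, which had 362 to 516 TPM each, and it made up 79.9% of the WT sum. In the averaged WT cell 31, 1 column was at 38.1 TPM and the other was listed at 0.

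Tgfbr1 was at 97.3 TPM in the 1 positive R9 cell with no ending (number 30, with 2975 genes). The 3 positive WT cells had 3.57, 28.04 and 701 TPM. The highest of these, WT cell 9, had 659 and 743 TPM in its 2 columns and made up 95.7% of the WT sum. Both receptors were detected together in 0 of 35, 1 of 32 (cell 30) and 1 of 22 cells, so nearly all Tgfbr2-positive cells had no Tgfbr1 listed at 1 TPM. Tgfb1 and Tgfbr2 were seen in the same cell in 3 of 35 R9 cells of ending 1 (8.57%, 1.80 to 23.1), numbers 6, 13 and 19, and in 0 of 32 and 0 of 22 of the others. Cell 19 held both at high levels, 510.3 TPM of Tgfb1 and 341 TPM of Tgfbr2.

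The receptor-activated SMAD genes were detected in all 3 sets, at shares whose intervals overlapped. Smad2 (chr18:76241580-76310963, plus strand) was detected in 7 of 35 cells of ending 1 (20%, 8.44 to 36.9), 9 of 32 with no ending (28.1%, 13.7 to 46.7) and 5 of 22 WT cells (22.7%, 7.82 to 45.4). Smad3 (chr9:63646767-63757994, minus strand) was detected in 4 of 35 (11.4%, 3.20 to 26.7), 7 of 32 (21.9%, 9.28 to 39.97) and 4 of 22 cells (18.2%, 5.19 to 40.3). No pair of intervals stood apart for either gene.

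Smad2 had its highest values in R9 cells of ending 1, where the positive cells had 20.9, 55.9, 136, 175, 199, 204 and 277 TPM. Positive R9 cells with no ending ran from 4.09 to 39.6 TPM with a median of 26.9 TPM. The 5 positive WT cells had 1.06, 1.64, 5.85, 40.9 and 149 TPM. So 6 of the 7 positive cells of ending 1 lay above every positive cell with no ending, and 5 of them were above 100 TPM, a level that 1 WT cell (number 27) also reached. Mean levels were higher in ending 1 than with no ending over all genes compared too, with a median log2 ratio of 1.69. Another 14 cells of ending 1 and 6 WT cells were above 0 but under 1 TPM.

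Smad3 passed 100 TPM in 1 cell of ending 1 and 1 WT cell. R9 cells of ending 1 had 1.15, 1.15, 4.26 and 401 TPM, and the last (cell 5) made up 97.997% of the sum of that series. The 7 positive R9 cells with no ending had 5.67, 13.6, 18.9, 23.4, 25.4, 43.1 and 54.8 TPM. The WT cells had 3.59, 5.54, 16.5 and 152 TPM. The 3 ranges overlap, and the highest WT value is again that of the averaged cells 16 and 32, whose 3 columns had 146 to 160 TPM. Smad2 and Smad3 were detected together in 1 of 35, 3 of 32 and 2 of 22 cells, and at least 1 of them in 10 of 35 (28.6%), 13 of 32 (40.6%) and 7 of 22 cells (31.8%).

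Smad4, the partner that both activated SMADs share, was detected in 5 of 35 cells of ending 1 (14.3%, 4.81 to 30.3), 4 of 32 with no ending (12.5%, 3.51 to 28.99) and 4 of 22 WT cells (18.2%, 5.19 to 40.3). Its gene (chr18:73639009-73703780, minus strand) overlaps the antisense gene AC132418.2, and whether reads were counted by strand is not given in the sources used here, so its values are uncertain to that extent. The positive cells had 2.23, 9.28, 50.6, 89.0 and 556 TPM in ending 1. With no ending they had 15.8, 33.5, 34.2 and 42.1 TPM. In WT they had 1.25, 1.48, 7.05 and 56.8 TPM. Cell 35 of ending 1, which made up 78.4% of the Smad4 sum of its series, was also the cell with the highest Ski. Smad4-positive cells had more genes than the rest of their set, with medians of 5310 against 2406 genes in ending 1, 2531 against 2038 with no ending and 3833 against 1994.5 in WT. Positive cells 1, 21 and 27 of ending 1 had 5787, 6042 and 5310 genes. Their top gene was the erythroid marker Hba-a1, at 19.3%, 4.01% and 3.78% of TPM. Without cells with over 4000 genes, Smad4 was detected in 6.45% of ending 1, 12.5% with no ending and 10% of WT. The part of such cells in the Smad4 values was not tested. A receptor-activated SMAD and Smad4 were detected in the same cell in only 1 of 35, 2 of 32 and 1 of 22 cells. Tgfbr2, Smad2 or Smad3, and Smad4 came together in 1 cell of the series, R9 cell 30 with no ending.

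Smad7, the inhibitory SMAD (chr18:75367529-75395935, plus strand), was detected in the fewest cells of the 4 SMAD genes among the 9. It was seen in 2 of 35 cells of ending 1 (5.71%, 0.700 to 19.2) at 9.50 and 158 TPM. All 32 R9 cells with no ending were listed at 0, in a set where Gapdh was also at 0 in 24 cells. The 2 positive WT cells (9.09%, 1.12 to 29.2) had 14.97 and 55.5 TPM. The positive cells had a median of 4614 genes against 2427 in the other cells of ending 1, and 4949.5 against 1994.5 in WT. A difference between the sets was not detectable with so few positive cells.

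At the limit of 1 TPM, detection of the co-repressor genes Ski and Skil differed between the R9 series, in opposite directions. Ski (chr4:155154075-155222592, minus strand) was detected in 2 of 35 R9 cells of ending 1 (5.71%, 0.700 to 19.2), 13 of 32 with no ending (40.6%, 23.7 to 59.4) and 4 of 22 WT cells (18.2%, 5.19 to 40.3). Skil (chr3:31095058-31122577, plus strand) was detected in 10 of 35 (28.6%, 14.6 to 46.3), 0 of 32 (up to 10.9) and 6 of 22 (27.3%, 10.7 to 50.2). For both genes the intervals of ending 1 and no ending did not overlap, and these were the only 2 of the 27 pairs of intervals (9 genes, 3 pairs of sets) that stood apart at 1 TPM. Among 7533 genes with detection in 10% or more of the cells of either series, 10.9% had an interval above and 2.31% an interval below in ending 1. The members had 1 gene on each side, too few to set apart from these shares. Over WT, where 0 of the members' intervals stood apart, these shares were 2.17% and 0.48% of 7506 genes for ending 1, and 1.26% and 1.68% of 7072 genes for no ending. At 10 TPM or more 0 of the 27 pairs stood apart. At any value above 0 Skil still stood apart between the series and Ski did not, and Skil with no ending (0 of 32) then also lay below WT (8 of 22, 17.2 to 59.3), where it met the WT interval between 10.7% and 10.9% at the 1 TPM limit. Without the cells in which 1 gene held 10% or more of all TPM, Ski was at 5.88% in ending 1 and 33.3% of the 6 cells left with no ending. Taken as a pair, Ski or Skil was detected in 12 of 35 (34.3%), 13 of 32 (40.6%) and 8 of 22 cells (36.4%). They were seen together in 0 of 35, 0 of 32 and 2 of 22 cells.

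Ski levels were high in the few positive cells of ending 1, at 104 and 270 TPM. The 13 positive cells with no ending ran from 1.35 to 74.4 TPM with a median of 25.5 TPM. WT cells had 3.804, 8.498, 9.29 and 18.0 TPM. Both positive cells of ending 1 thus lay above every positive cell of the other sets. A further 6 cells of ending 1 and 4 WT cells were above 0 but under 1 TPM, so that at any value above 0 Ski was seen in 8, 13 and 8 cells. At 10 TPM or more it was seen in 2 of 35, 9 of 32 and 1 of 22 cells. Ski-positive cells with no ending had a median of 2286 genes, against 2006 in Ski-negative ones. Their mast cell marker sum was 1889 TPM in the median against 1344 TPM, their macrophage and dendritic sum 709 against 366 TPM, their epithelial sum 1137 against 353 TPM, and their ILC3 sum 6722 against 2609 TPM. Such differences were not particular to Ski. With no ending, Smad2-positive cells had median sums of 8778 against 2606 TPM (ILC3), 1803 against 773 (mast cell) and 1071 against 326 (macrophage and dendritic). Tgfbr2-positive cells had 5999 against 2606, 1456 against 773 and 792 against 326 TPM. The epithelial sum was lower in Smad2-positive cells (464 against 725 TPM) and higher in Tgfbr2-positive ones (840 against 464). The part of these markers in the values was not tested.

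Skil reached higher levels in R9 cells of ending 1, with 1.18, 2.85, 7.90, 11.5, 12.7, 18.6, 90.4, 166, 187 and 428 TPM in the positive cells. The 6 positive WT cells had 3.15, 3.21, 12.1, 14.1, 28.02 and 39.9 TPM. The lower 6 values of ending 1 fall within or just below the WT range and the upper 4 lie above it. At 10 TPM or more Skil was still seen in 7 of 35 cells of ending 1, 0 of 32 with no ending and 4 of 22 in WT. Within ending 1, Skil-positive and Skil-negative cells were alike in gene number (medians 2389.5 and 2429). Within WT, Skil-positive cells had a median of 2635 genes against 1994.5. Their epithelial marker sum was 16620 TPM in the median against 1561 TPM, and their ILC3 marker sum 1319 against 5241 TPM. The part of these markers in the Skil values was not tested.

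**Figure D3:**
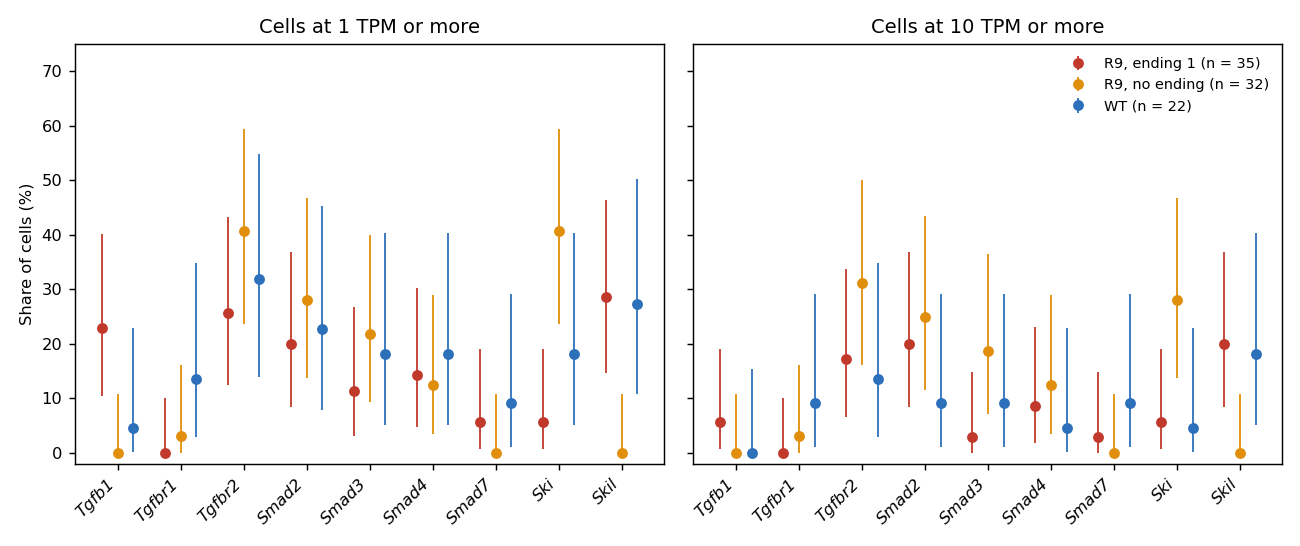
Share of cells (y axis, %) with each gene at 1 TPM or more (left) and 10 TPM or more (right), for R9 cells of ending 1, R9 cells with no ending and WT cells from left to right within each gene. Points are shares and bars are exact 95% intervals for counting error. At 1 TPM, Ski stands at 5.71% in ending 1 against 40.6% with no ending, and Skil at 28.6% in ending 1 against 0 of 32 cells with no ending. At 10 TPM the bars of each gene overlap.

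Counting all 9 genes per cell, at least 1 was detected in 24 of 35 R9 cells of ending 1 (68.6%), 24 of 32 with no ending (75%) and 17 of 22 WT cells (77.3%). At least 2 were detected in 18 (51.4%), 14 (43.8%) and 9 (40.9%) of these cells. The largest number in a cell was 4, 6 and 7 of 9. The cells concerned had 6042, 2975 and 7518 genes, which were the highest, the second highest and the highest gene numbers of their sets. Cells with none of the 9 genes had medians of 2429, 1865 and 1915 genes, set medians being 2429, 2082.5 and 2092.5. Of all values of the 9 genes, 14.9%, 16.3% and 18.2% were at 1 TPM or more, against 11.9%, 9.10% and 10.5% over all genes in the tables. That background takes in genes that hardly any cell detected. Among genes detected in 10% or more of the cells of an R9 series or of WT, members were not detected more widely. Their median share of cells was 17.1% against 25.7% for all such genes in ending 1, 21.9% for both with no ending, and 18.2% against 22.7% in WT. Among detected values of the 9 genes, 40.4% in ending 1, 0% with no ending and 11.1% in WT were at 100 TPM or more, where all genes had 46.3%, 34.95% and 31.6%. None of the 47 detections in R9 cells with no ending reached that level.

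**Figure D4:**
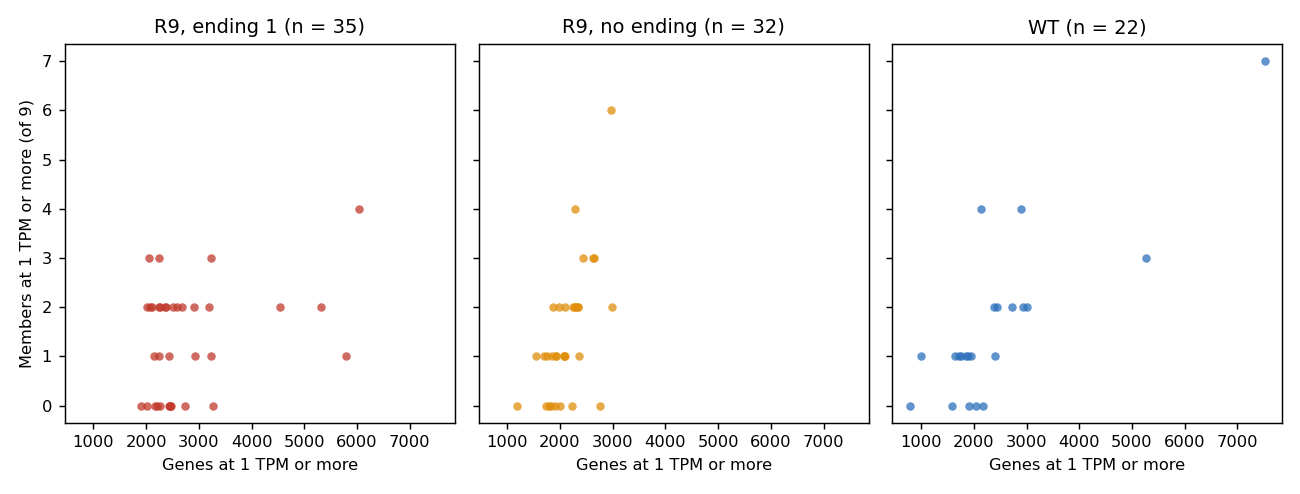
Number of the 9 genes at 1 TPM or more in a cell (y axis) against the number of all genes at 1 TPM or more in that cell (x axis), in R9 cells of ending 1, R9 cells with no ending and WT cells. Each point is 1 cell. The cells with 4, 6 and 7 detected members are at 6042, 2975 and 7518 genes.

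Levels were then set across the tables as log2((mean TPM + 1)/(mean TPM + 1)), R9 over WT. The tables were normalized separately, so this is a ratio of levels between tables, and the pseudocount of 1 TPM makes it smaller for low genes. The median of all genes compared was 0.50, and it was subtracted from each ratio (a centred ratio). A gene entered the comparison where 10% or more of the cells in either group detected it, and it was past the fold at a centred ratio of 1 or more in size. Of the 9 members, 8 passed the filter (Smad7 did not), and 3 were higher and 1 lower in R9 past the fold. Of all 7306 genes compared, 30.2% were higher and 27.2% lower past the same fold, so the members' counts were near the background. Their median centred ratio was 0.70, and 0.21 without the highest cell of each gene in each group. Without those cells the all-gene median, then subtracted in its place, was 1.27.

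Tgfb1 had a centred ratio of 2.40 with means of 8.36 TPM in R9 cells and 0.246 TPM in WT cells, and it turned to -0.45 without the highest cells. Before centring, the Tgfb1 ratio without those cells was still above 0, at 0.82. Its mean was then 0.76 TPM in R9 and 0 in WT, whose only positive cell was left out. Tgfbr1 was at -4.31 with 1.45 TPM in R9 and 33.3 TPM in WT, at -2.60 without the highest cells and at -0.89, short of the fold, as a difference of mean log2 values. Tgfbr2 was at 0.10 with 40.2 TPM in R9 and 26.1 TPM in WT, and at 0.95 without the highest cells. The ratio of Tgfbr1 rests on 4 positive cells in the whole series, and that of Tgfb1 on 1 R9 cell.

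Smad2 was at 0.51 (19.4 TPM in R9, 9.14 TPM in WT) and Smad3 at -0.40 (8.87 TPM in R9, 8.16 TPM in WT), neither past the fold. Smad4 was at 1.24 with 12.5 TPM in R9 and 3.03 TPM in WT, at 0.57 without the highest cells, and at -0.021 as a difference of mean log2 values. Without cells with over 4000 genes Smad4 was at 3.04. Smad7, outside the filter, was at -0.77 with 2.50 TPM in R9 and 3.21 TPM in WT. Ski was at 1.69 with 12.2 TPM in R9 and 1.87 TPM in WT, at 0.87 without the highest cells, and turned to -0.45 when cells were scaled by common genes. Skil was at 0.90 with 13.8 TPM in R9 and 4.61 TPM in WT, and at -0.14 without the highest cells. Without the highest cells 0 of the 8 genes stayed past the fold on the higher side, while Tgfbr1 stayed on the lower side. Leaving out the only Tgfbr1-positive R9 cell sets its R9 mean to 0, so that setting does not test the Tgfbr1 ratio. Before centring it was then -1.33.

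**Figure D5:**
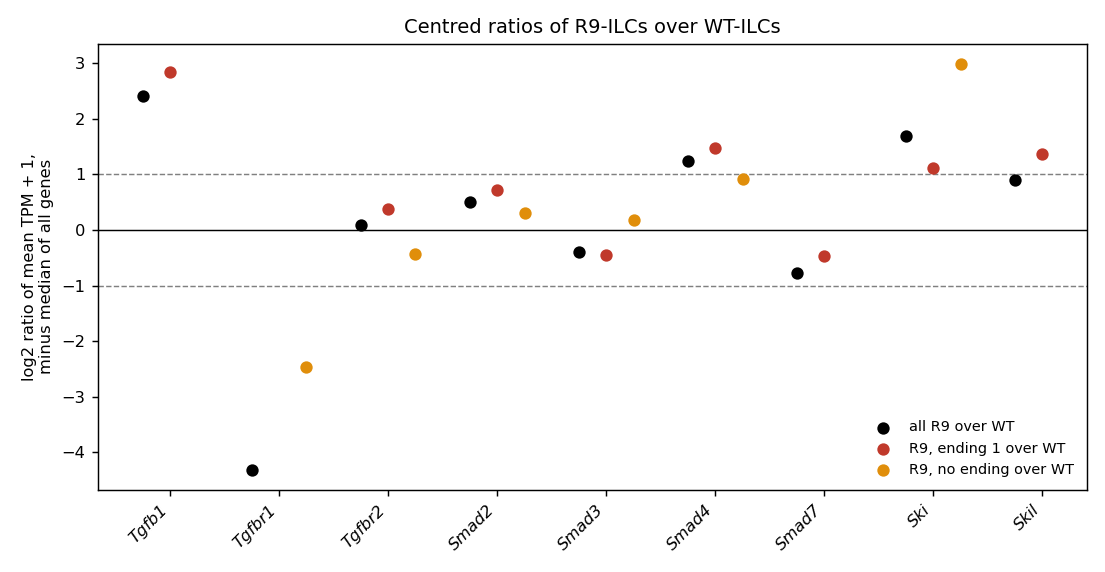
Centred log2 ratio of mean TPM + 1 for the 9 genes, R9 over WT. Dashed lines mark the fold. For all R9 cells Tgfbr1 lies at -4.31 and Tgfb1 at 2.40. Without the highest cell of each gene in each group the values were -2.60 and -0.45, after an all-gene median of 1.27 was subtracted.

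Taken apart, the R9 series gave different pictures. In ending 1 over WT, where the median of all genes was 0.93, 4 of 8 members compared were higher past the fold (Tgfb1 at 2.84, Smad4 at 1.47, Skil at 1.36 and Ski at 1.11) and Tgfbr1, listed at 0 in all 35 cells, was lower. All genes had 30.1% higher and 28.5% lower of 7506. Without the highest cells those 4 members were short of the fold, at -0.12, 0.48, 0.57 and -0.45. With no ending over WT, the median of all genes was -0.62, and Ski alone of 7 members compared was higher (2.98). Ski was at 2.55 without the highest cells, where Smad3 at 1.12 and Smad4 at 1.28 were also past the fold. Tgfbr1 (-2.46) and Skil, listed at 0 in all 32 cells, were lower. Tgfbr1 was at -1.38 without the highest cells, which left no positive R9 cell. All genes had 32% higher and 31% lower of 7072. In ending 1 over no ending, Ski was at -2.02, with a mean of 10.8 TPM in ending 1 and 13.7 TPM with no ending, after a median of all genes of 1.69, and at -3.17 without the highest cells. Tgfb1 and Skil were higher in that comparison, against a series listed at 0 for both, and Tgfb1 was short of the fold without its highest cell. The size of a ratio to a set listed at 0 depends on the pseudocount and on the median subtracted. Thus 2 of 7 members were higher and 1 lower, with 25.1% and 27.6% of 7533 genes for comparison. Between the 2 series Tgfbr2 (0.66) and Smad2 (0.27) were within the fold. As a difference of mean log2 values they were at -0.56 and -0.15. The ratios of both series share the WT cells. Tgfbr2 (0.38 and -0.42), Smad2 (0.72 and 0.31) and Smad3 (-0.46 and 0.19) were within the fold in ending 1 and no ending over WT. Without the highest cells, Tgfbr2 (1.41), Smad2 (1.39) and Smad3 (-2.32) were past it in ending 1 over WT, and with no ending Tgfbr2 (0.70) and Smad2 (0.99) were not.

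The other genes of the pathway were described from 7 lists with 78 genes, of which 32 passed the filter in R9 over WT. Of these, 11 were higher and 8 lower past the fold, with a median centred ratio of 0.67, or 0.18 without the highest cells. Set against 30.2% and 27.2% of all genes, both directions were about as common as the background.

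Upstream of the receptors, 2 of 12 ligand, carrier and activator genes passed the filter. Itgav, the integrin chain that helps release latent TGF-beta, was at -0.62 and was detected in 10 of 35, 8 of 32 and 3 of 22 cells. Furin, the protease that cleaves the precursor, was at -1.08 with 7.65 TPM in R9 and 11.9 TPM in WT. Inhba, an activin subunit gene, was seen in 1 R9 cell of ending 1, and Lrrc32, which tethers latent TGF-beta to the cell surface, in 1 WT cell. Tgfb2, Ltbp1, Ltbp3, Itgb8 and Itgb6 were listed at 0 in both groups. Among 13 other receptor and partner genes, 1 passed the filter: Fkbp1a, whose product FKBP12 binds the type I receptor, was at -0.04 and was detected in 33 of 35, 22 of 32 and 17 of 22 cells. The activin and BMP receptor genes Bmpr1a and Acvr1 and the co-receptor gene Eng were each in at most 4 cells of a set.

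Smad1, which carries BMP signals, had the lowest centred ratio of the named pathway genes. Its mean was 1.76 TPM in R9 cells of ending 1 and 7.29 TPM with no ending, against 219 TPM in WT cells, a centred ratio of -5.85 for all R9 cells over WT. It was detected in 4 of 35, 4 of 32 and 9 of 22 cells (40.9% in WT). A single WT cell made up 76.3% of the WT sum, and the centred ratio was -5.08 without the highest cells. Smad5, another BMP SMAD gene, was at 1.82 (1.90 without the highest cells) and was seen in 8 of 35, 0 of 32 and 2 of 22 cells. Smad6 was seen in 2 cells of ending 1, and Smad9 was listed at 0 in all cells.

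Of the 16 genes for SMAD ubiquitin ligases, deubiquitinases and phosphatases, 8 passed the filter, with 3 higher and 2 lower. Usp4, a deubiquitinase of the type I receptor, was at 3.07 (2.74 without the highest cells), with means of 59.5 and 21.4 TPM in R9 cells of ending 1 and no ending and 2.56 TPM in WT cells, and was seen in 6 of 35, 12 of 32 and 5 of 22 cells. Wwp2, a ubiquitin ligase of SMADs, was at 2.87 (1.62) and was seen in 9 of 35, 15 of 32 and 5 of 22 cells. Usp15, another deubiquitinase of the pathway, was at -1.40 (-1.93), with 88.9 and 9.09 TPM in the R9 series against 95.2 TPM in WT. By detection it was not lower in ending 1, with 17 of 35, 7 of 32 and 7 of 22 cells. Ctdsp2, a phosphatase of the SMAD linker, was at -0.54. Also past the fold were the ubiquitin ligase gene Rnf111 (1.80) and the SMAD phosphatase gene Ppm1a (-2.37).

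Of 12 nuclear partners of SMADs, 9 passed the filter, 3 higher and 3 lower. The co-repressor gene Ncor1 was at -1.91 (-2.31 without the highest cells) and was detected in 30 of 35, 21 of 32 and 18 of 22 cells, with 156.7 and 34.7 TPM in the R9 series and 263 TPM in WT. The histone deacetylase gene Hdac1 was at -3.40, with 86.6% of its WT sum in 1 cell, and at -1.55 without the highest cells. By detection it was not lower in R9, with 22 of 35, 16 of 32 and 11 of 22 cells. Tgif1, a repressor that binds SMADs, was at 2.16 (3.07) and was detected in 17 of 35, 5 of 32 and 3 of 22 cells. Hdac3, another deacetylase gene, was at 0.97 for all R9 cells, with 1.45 in ending 1 and -2.26 with no ending. Also past the fold were the co-repressor scaffold gene Sin3a (-1.96) and the transcription factor genes Sp1 and Runx3 (1.08 and 1.09), which were at -0.44 and 0.37 without the highest cells.

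Of 9 genes of the SMAD-independent arm, 6 passed the filter, 2 higher and 0 lower. The named members were within the fold in R9 over WT: the small GTPase gene Rhoa at -0.36 (detected in 34 of 35, 29 of 32 and 19 of 22 cells), the kinase genes Mapk14 at 0.73 and Akt1 at 0.75, and Rock1 at -0.32. The 2 past the fold were Tab2, an adaptor of the kinase TAK1 (2.12, and 1.92 without the highest cells), and the ubiquitin ligase gene Traf6, seen in 7 R9 cells and listed at 0 in WT. Mapk14 was at 1.16 in ending 1 and -1.23 with no ending.

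Of 12 genes known to be induced by TGF-beta, 4 passed the filter, 2 higher and 1 lower. Junb, an AP-1 subunit gene, was detected in every cell, at a mean of 574.9 TPM in ending 1, 790.5 TPM with no ending and 184.5 TPM in WT. Its centred ratio for all R9 cells was 1.37, and 0.81 without the highest cells. Cdkn1a, which encodes the cell cycle inhibitor p21, was at 1.25 (1.10) and was detected in 20 of 35, 18 of 32 and 10 of 22 cells. Bhlhe40, a transcriptional repressor gene, was at -0.32, with -1.47 in ending 1 and 1.33 with no ending, where it was detected in all 32 cells. Id3, an inhibitor of basic helix-loop-helix factors, was at -1.89 and was seen in 4, 1 and 3 cells. The residence integrin genes Itgae and Itga1 were detected in 0 and 1 R9 cells and in 0 WT cells. Junb, Cdkn1a and Id3 answer to other signals as well, so these values describe the genes and not the pathway's activity.

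Tgfbr2 and Smad2 were the members that reached 20% of cells in all 3 sets, which allowed the genes closest to them in pattern to be named among 2552 genes with the same detection. For Tgfbr2 these were Ubald1 (mean within-set Spearman rho 0.44), Pde6d (0.43) and Ccdc115 (0.41). For Smad2 they were Ikzf1 (0.45), Emc8 (0.45) and Slc35b4 (0.44). The rho of Ikzf1 with Smad2 was 0.16 over 35 cells of ending 1, 0.40 over 32 cells with no ending and 0.79 over 22 WT cells. These are weak likenesses among sparse values, over cells whose gene numbers differ, and they are given as a description.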

How the data were processed

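Each sample was a single cell, profiled by full-length RNA sequencing with the Discover-sc WTA and TruePrep kits, per the labels' protocols. The authors deposited TPM for 23420 gene symbols in 2 tables, normalized separately, whose columns each sum to 1e+06. Per the submitters' processing notes, the build was mm10 and the tools were StringTie 1.3.4, HISAT2 2.1.0, bcl2fastq and SAMtools 0.1.19. TPM keeps no depth, so depth per cell is unknown, and genes at 1 TPM or more stand in for it. WT columns were averaged into 1 cell where Pearson's r of log2(TPM + 1) passed 0.8 over genes detected in both (joined pairs 0.844 to 0.995, highest other pair 0.754). Of the genes detected in either column of a joined pair, 24.0% to 92.2% were detected in both.

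The labels name no animals, so each group was 1 sample and no p-value was computed. Ratios used a pseudocount of 1 TPM, centring on the median of all genes tested, and a fold of 2. Shares carry exact 95% intervals. The code was tested on simulated data without zeros, so that test does not bear on calls among sparse values. All 9 members are named, with up to 4 genes of highest mean TPM from each pathway list and the 3 most alike genes of each member detected in 20% of the cells of every set. A gene outside this rule that is named beside them was chosen after its values were seen. Members and lists were chosen with earlier results of these data known. Alternatives varied the pseudocount, mean, scaling, filters, detection limit and cells. Python 3.11.15 was used with pandas 2.3.3, scipy 1.17.1, matplotlib 3.10.9 and numpy 2.4.6, and GRCm38 coordinates were matched by symbol.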

Additional observations from a re-analysis of the deposited data

How the results depend on the processing

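The counts of members past the fold in R9 over WT moved with most choices. The 3 on the higher side were 0 with a pseudocount of 10 TPM, with the difference of mean log2(TPM + 1), or without the highest cell of each gene on either side. They were 1 with cells scaled by common genes or with R9 cells of no title ending only, 5 when ratios were not centred, and 7 against the 9 WT columns of title ending 1. The 1 on the lower side was 0 with mean log2 values and 2 with all 31 WT columns as cells, with R9 cells of no title ending, or against WT columns of title ending 2. The 11 pathway genes on the higher side were 6 with a pseudocount of 10 TPM, 3 with mean log2 values, 7 with common-gene scaling, 17 uncentred, 19 without cells in which 1 gene held 10% or more of all TPM, 25 with no filter and 17 with a filter on a mean of 1 TPM. The 8 on the lower side were 1 with mean log2 values and 14 with the filter on the mean. Smad4 turned to -0.021 with mean log2 values, Ski to -0.45 with common-gene scaling and Tgfb1 to -0.45 without the highest cells. For Tgfb1 the ratio before centring stayed above 0 there, at 0.82. Over all settings, Tgfbr1 ran from -7.29 to -0.89 and Smad2 from 0.24 to 3.52. The causes were not tested. Of the ratios of single members, 111 stayed within 1.5-fold, 39 moved by more and 3 past the fold as reported changed sign, as named above. Among members short of the fold as reported, Skil (down to -1.87), Tgfbr2 (down to -0.78), Smad3 (up to 2.47) and Smad7 (up to 0.98) also changed sign under some settings. The Skil value is that of R9 cells with no title ending, all listed at 0. Common-gene scaling brought the median of all genes to 0.10, and setting values under 1 TPM to 0, an alternative chosen after seeing the data, left every count of calls within 1.5 times.

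The number of members detected in at least 20% of cells was 4 in R9 cells of ending 1 (7 above 0 TPM, 2 at 10 TPM), 4 with no ending (1 without cells in which 1 gene held 10% of all TPM, which left 6 cells) and 3 in WT (5 above 0 TPM, 0 at 10 TPM). The share of cells with 2 or more members was 85.7% above 0 TPM and 31.4% at 10 TPM in ending 1, against 51.4% as reported. It was 16.7% with no ending without the cells dominated by 1 gene, against 43.8%, and in WT 68.2% above 0 TPM and 18.2% at 10 TPM, against 40.9%. With 1 sample a group, zeros that can be failed estimates, unknown depth and 22 to 35 cells a set, a gene listed at 0 in every cell of a set is not shown to be absent from it. No paired analysis was possible because the labels name no animals and no result comes from a test.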
